A study of Mus musculus with 6 samples.

Results

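Mouse embryonic stem cells (mESCs) draw glycine and folate-bound carbon from threonine and serine, and the 9 genes described here encode enzymes of those steps. They are Tdh and Gcat, which break threonine down to glycine, Gldc, Amt, Gcsh and Dld, which form the glycine cleavage system, and Shmt1, Mthfd1 and Mthfd1l, which pass the folate-bound carbon on. The genes were taken by name, and their transcripts were summed, so that 9 of 53285 gene names are covered. All 9 passed the filter on low counts, which left 18158 genes.

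RNA was measured in TKO mESCs, a male line made from J1 mESCs of the 129S4/SvJae strain that carries inactivated Dnmt1, Dnmt3a and Dnmt3b genes in every library. The TKO-serum group (3 libraries) was grown in high-glucose DMEM with 15% fetal calf serum, non-essential amino acids, pyruvate and the cytokine LIF at 500 U/ml. The TKO-2i group (3 libraries) was grown in serum-free N2B27 medium with 1000 U/ml of LIF and inhibitors of MEK (PD0325901, 1 µM) and of GSK3 (CHIR99021, 3 µM). Both groups were grown on gelatin without feeder cells, and all libraries were poly(A)-selected and strand-specific, from 500 ng of RNA with an integrity number of at least 9.9. Serum, basal medium, LIF dose and inhibitors all differ between the groups, so their parts cannot be told apart. The labels call the libraries biological replicates, and p-values measure the spread between these libraries. The depth, as the sum of estimated counts, was 46228700, 44180642 and 43896549 for the TKO-2i libraries in order of replicate, beside 38274042, 51932739 and 44827609 for the TKO-serum libraries. Sequencing pools are not named per library and could not be compared.

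As background, Tdh oxidises threonine in mitochondria, and Gcat splits the product into glycine and acetyl-CoA. The glycine cleavage system then takes glycine apart and loads its methylene carbon onto tetrahydrofolate, the carrier that feeds purine and thymidylate synthesis. Undifferentiated mESCs are known for abundant Tdh and for a need for threonine in their medium.

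The label of the cells was checked against marker genes, in TPM, a level corrected for transcript length. The mESC markers Pou5f1, Sox2, Nanog, Zfp42 and Esrrb summed to 2526, 2499 and 2367 TPM in TKO-2i and to 2773, 2847 and 2790 TPM in TKO-serum. These markers were abundant in all 6 libraries, and in TKO-2i 2 were called higher (Nanog and Esrrb) and 2 lower (Sox2 and Zfp42). Over all genes tested, 32.0% were called higher and 30.5% lower in TKO-2i. Transcripts of the inactivated genes were still counted. Dnmt1 had 29.1, 34.6 and 29.3 TPM in TKO-2i and 25.7, 28.6 and 27.9 TPM in TKO-serum. Dnmt3a had 4.30, 5.19 and 4.54 TPM in TKO-2i and 21.3, 23.0 and 22.8 TPM in TKO-serum, and Dnmt3b had 6.71, 9.53 and 8.49 TPM and 18.8, 20.9 and 20.7 TPM. Dnmt3a and Dnmt3b were lower in every TKO-2i library. A sum over a whole gene includes exons outside a deleted part and does not check the deletion. The 5 fibroblast markers, led by Thy1, summed to 4.06, 4.77 and 4.53 TPM in TKO-2i and 5.51, 6.22 and 5.77 TPM in TKO-serum, with Col3a1 and Postn at or near 0, and 2 of the 3 tested were lower in TKO-2i.

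Markers of some other cell types differed between the media. The numbers called stand beside 32.0% of all genes called higher in TKO-2i and 30.5% called lower. The 5 neural markers were all lower in TKO-2i, with sums of 82.3, 80.3 and 79.6 TPM in TKO-2i and 138, 142 and 138 TPM in TKO-serum, mostly from Tubb3. The 5 primitive endoderm markers, led by Gata4, summed to 4.56, 5.44 and 4.28 TPM in TKO-2i and 8.997, 10.3 and 11.4 TPM in TKO-serum, and 4 of them were lower in TKO-2i. Of 5 trophoblast markers, 3 were higher and 1 lower in TKO-2i, with sums of 80.6, 75.5 and 76.9 TPM in TKO-2i and 39.0, 39.3 and 37.5 TPM in TKO-serum. The largest part came from Krt8 in TKO-2i and from Tfap2c in TKO-serum. Krt8, Tfap2c and Cdx2 were the higher markers and Hand1 was the lower one. Elf5 was not called, with means of 0.197 TPM in TKO-2i and 0.179 TPM in TKO-serum. Whether cells of these types were present was not tested, nor was their part in the results below. In bulk RNA fewer cells of a type and less RNA per cell cannot be told apart.

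Of the 9 genes, 7 (77.8%) differed between TKO-2i and TKO-serum at an adjusted p-value under 0.05, beside 62.5% of all genes tested. In TKO-2i, 5 were higher, beside 32.0% of all genes, and 2 were lower, beside 30.5%. The share of the 9 genes is therefore near that of genes in general, and it is the identity and direction of each gene that the values below describe. Their median log2 fold change was 0.30, and that of all tested genes was 0.01. Levels in CPM (counts scaled to library size by TMM) did not overlap between the media for 7 of the 9 genes, beside 67.5% of all genes.

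Both threonine genes were higher in TKO-2i. Tdh (ENSMUSG00000021953; chromosome 14, 63492347 to 63509092, minus strand of GRCm38) encodes threonine dehydrogenase. Its level was 581, 563 and 595 TPM in TKO-2i replicates 1, 2 and 3 and 376, 376 and 377 TPM in TKO-serum replicates 1, 2 and 3. All TKO-2i libraries lay above all TKO-serum libraries, and the serum libraries were almost identical. On the count scale Tdh had 898, 739 and 905 CPM in TKO-2i and 526, 467 and 492 CPM in TKO-serum, without overlap, and TKO-2i replicate 2 was the lowest of the TKO-2i libraries. The log2 fold change was 0.78 (standard error 0.09; edgeR quasi-likelihood test, Benjamini-Hochberg adjusted p = 7.3e-05), a fold of 1.71.

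Gcat, the 2-amino-3-ketobutyrate CoA ligase (ENSMUSG00000006378; chromosome 15, 79030874 to 79038353, plus strand), had 88.2, 81.0 and 85.5 TPM in TKO-2i and 55.5, 54.6 and 56.2 TPM in TKO-serum. Again the groups did not overlap, and the TKO-2i libraries were the higher ones. Its log2 fold change was 0.75 (standard error 0.10; edgeR quasi-likelihood test, Benjamini-Hochberg adjusted p = 3.0e-04). The ratio of Tdh to Gcat in TPM, chosen after the levels were seen, was 6.59, 6.95 and 6.95 in TKO-2i and 6.77, 6.89 and 6.70 in TKO-serum. These ratios overlapped between the media on all transcripts, while on coding transcripts, a choice made after seeing the data, their means were 6.39 in TKO-2i and 6.03 in TKO-serum. Gcat has 2 gene identifiers in the annotation, and the transcript of the second, annotated as protein-coding, made up at most 1.44% of the Gcat TPM.

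**Figure D1:**
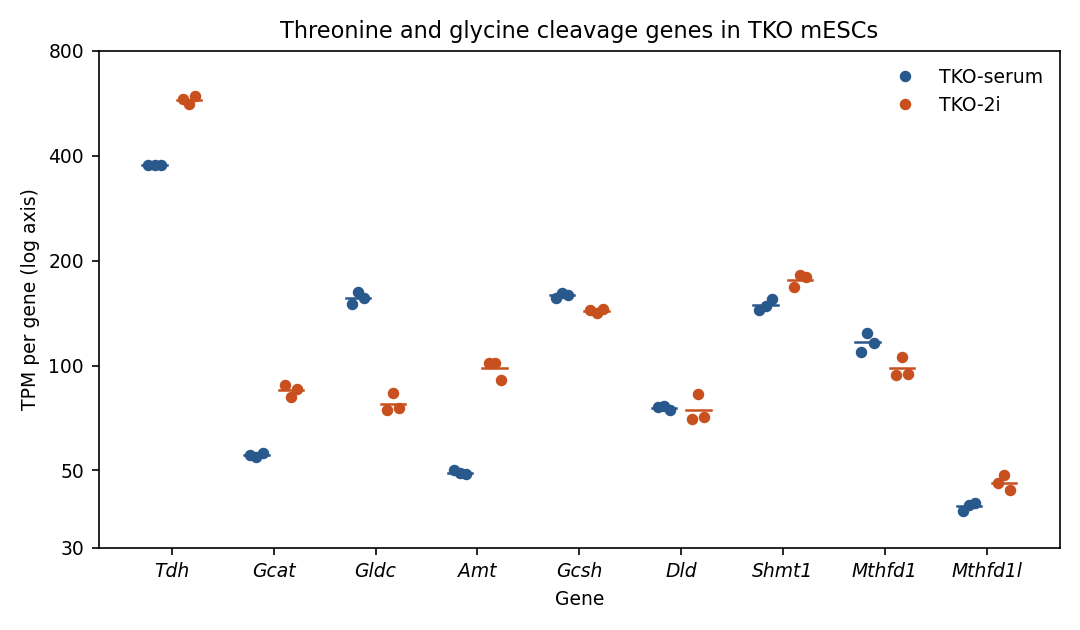
TPM of each of the 9 genes on a log axis, with points for the 3 libraries of TKO-serum and the 3 of TKO-2i and bars for their means. Tdh stands highest in both media, Gldc falls from a mean of 156 to 77.8 TPM and Amt rises from 49.3 to 98.1 TPM between serum and 2i.

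In the glycine cleavage system, Gldc was lower and Amt higher in TKO-2i, while Gcsh and Dld did not pass the edgeR test. Gldc encodes the glycine decarboxylase (P protein), which starts the reaction (ENSMUSG00000024827; chromosome 19, 30098447 to 30175429, minus strand). It had 74.5, 83.4 and 75.6 TPM in TKO-2i and 150.5, 162 and 156 TPM in TKO-serum. Every TKO-2i library was far below every TKO-serum library. The log2 fold change was -0.91 (standard error 0.05; edgeR quasi-likelihood test, Benjamini-Hochberg adjusted p = 9.1e-07), so that serum exceeded 2i by a fold of 1.87. Amt encodes the aminomethyltransferase (T protein), which hands the carbon to tetrahydrofolate (ENSMUSG00000032607; chromosome 9, 108296853 to 108302302, plus strand). Its level was 102.0, 101.6 and 90.8 TPM in TKO-2i and 50.2, 49.0 and 48.7 TPM in TKO-serum. The direction was opposite to that of Gldc, again without overlap. Its log2 fold change was 1.17 (standard error 0.08; edgeR quasi-likelihood test, Benjamini-Hochberg adjusted p = 3.4e-06), a fold of 2.25. It was the largest in size of the 9 genes in this fit, while with limma on log2(TPM + 0.1) Gldc, at -1.01, exceeded Amt, at 0.99.

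Gcsh, the H protein that carries the aminomethyl group on a lipoyl arm (chromosome 8, 116981810 to 116993537, minus strand), had 144.8, 141.1 and 145.3 TPM in TKO-2i and 157, 161 and 159.6 TPM in TKO-serum. On this scale the TKO-2i libraries were slightly lower, without overlap. On the count scale they overlapped, with 125.6, 110.6 and 127.9 CPM in TKO-2i and 130.3, 123.9 and 126.3 CPM in TKO-serum. The log2 fold change of counts was -0.06 (standard error 0.07; edgeR quasi-likelihood test, Benjamini-Hochberg adjusted p = 0.44), while limma on log2(TPM + 1) gave -0.15 with an adjusted p of 0.017. With length-scaled counts in edgeR it was -0.05, so Gcsh was called only where the scale and the method both differed. Dld, the dihydrolipoamide dehydrogenase that reoxidises the arm and also serves other complexes (chromosome 12, 31331277 to 31351453, minus strand), had 70.0, 82.8 and 71.2 TPM in TKO-2i and 75.8, 76.7 and 74.7 TPM in TKO-serum. The groups overlapped. Its log2 fold change of 0.06 (standard error 0.06; edgeR quasi-likelihood test, Benjamini-Hochberg adjusted p = 0.41) turned to -0.02 with limma on log2(TPM + 1).

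**Figure D2:**
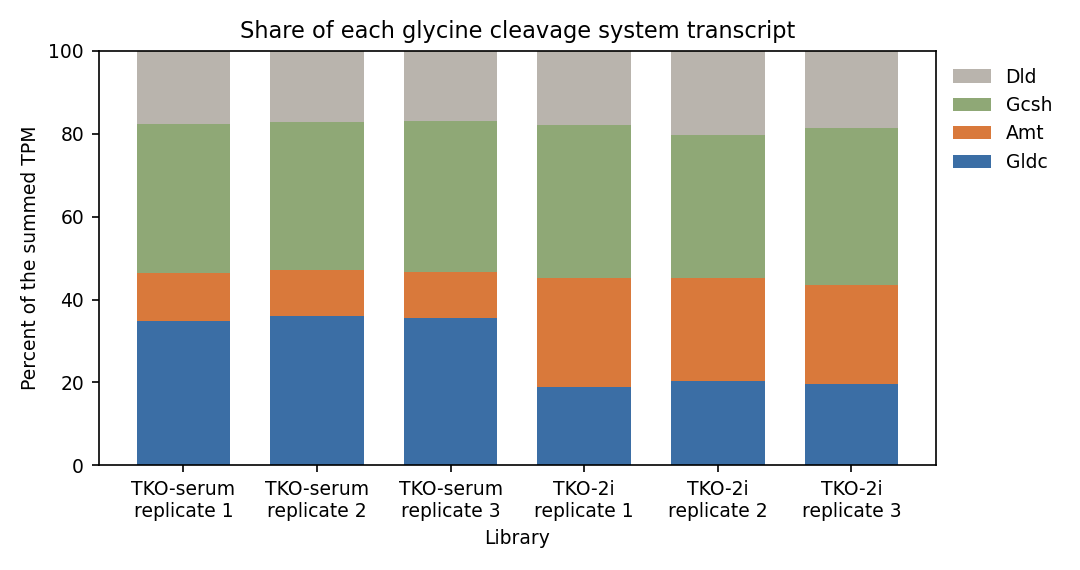
Percent that each of Gldc, Amt, Gcsh and Dld holds of the summed TPM of these 4 genes in each library. Gldc holds 34.7 to 36.1% in the TKO-serum libraries and 19.0 to 20.4% in the TKO-2i libraries, and Amt 10.9 to 11.6% and 23.7 to 26.1%.

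The make-up of these 4 genes differed, and so did their sum in TPM. Summed TPM was 391, 409 and 383 in TKO-2i and 433, 449 and 439 in TKO-serum. Every TKO-2i library had the lower sum. These sums were not scaled by TMM. The median log2 fold change of all genes was -0.06 with limma on log2(TPM + 1) and 0.01 in edgeR. The part of this offset in the lower sum was not tested. Gldc held 35.5 ± 0.683% (SD, n = 3) of the sum in TKO-serum and 19.7 ± 0.683% in TKO-2i. Amt held 11.2 ± 0.355% in TKO-serum and 24.9 ± 1.18% in TKO-2i. The shares of Gcsh overlapped, at 36.1 ± 0.234% in TKO-serum and 36.5 ± 1.78% in TKO-2i. Dld held a slightly larger share in every TKO-2i library, at 17.9 to 20.3% beside 17.0 to 17.5% in TKO-serum. As a ratio of TPM, chosen after the levels were seen and not tested, Gldc to Amt was 0.730, 0.821 and 0.832 in TKO-2i and 3.00, 3.31 and 3.20 in TKO-serum. Thus Gldc was the more abundant of the pair in every TKO-serum library and the less abundant in every TKO-2i library.

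The remaining genes move folate-bound carbon, and their log2 fold changes were smaller in size than those of Tdh, Gcat, Gldc and Amt. Shmt1, the cytosolic serine hydroxymethyltransferase (ENSMUSG00000020534; chromosome 11, 60788104 to 60811718, minus strand), had 168, 182 and 179 TPM in TKO-2i and 144.0, 149 and 155 TPM in TKO-serum. The TKO-2i libraries were higher without overlap. Its log2 fold change was 0.38 (standard error 0.06; edgeR quasi-likelihood test, Benjamini-Hochberg adjusted p = 4.4e-04), or 0.24 with limma on log2(TPM + 1). Over the 1397 tested genes of chromosome 11 the median was 0.26, or 0.30 over the 1164 with a mean of 1 CPM or more. The part of this shift in the Shmt1 value was not tested. Mthfd1, the cytosolic enzyme that interconverts methylene-, methenyl- and formyl-tetrahydrofolate (ENSMUSG00000021048; chromosome 12, 76255298 to 76319803, plus strand), had 93.8, 105.6 and 94.8 TPM in TKO-2i and 109, 124 and 116 TPM in TKO-serum. The TKO-2i libraries were lower, and the closest libraries of the groups were near each other. The log2 fold change was -0.15 (standard error 0.05; edgeR quasi-likelihood test, Benjamini-Hochberg adjusted p = 0.020), or -0.25 with limma on log2(TPM + 1). The call in edgeR was lost without TKO-2i replicate 3 or without any of the TKO-serum replicates, where the value lay between -0.17 and -0.14. Mthfd1l, the mitochondrial formyl-tetrahydrofolate synthetase (ENSMUSG00000040675; chromosome 10, 3973118 to 4167081, plus strand), had 45.9, 48.4 and 43.9 TPM in TKO-2i and 38.3, 39.8 and 40.5 TPM in TKO-serum. Every TKO-2i library was higher. The log2 fold change was 0.30 (standard error 0.05; edgeR quasi-likelihood test, Benjamini-Hochberg adjusted p = 0.0011). The ratio of the cytosolic Mthfd1 to Mthfd1l in TPM was 2.13 ± 0.0735 (SD, n = 3) in TKO-2i and 2.95 ± 0.152 in TKO-serum. This ratio was chosen after the levels were seen and was not tested.

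By level in TPM, Tdh stood first in both media, at 579.6 ± 15.9 in TKO-2i and 376 ± 0.527 in TKO-serum (SD, n = 3). By its mean over the 6 libraries Tdh ranked 264 among all gene names. In TKO-2i the order then ran Shmt1, Gcsh, Amt, Mthfd1, Gcat, Gldc, Dld and Mthfd1l. Libraries of neighbours overlapped for Amt and Mthfd1, for Gcat and Gldc, and for Gldc and Dld. In TKO-serum the order after Tdh was Gcsh, Gldc, Shmt1, Mthfd1, Dld, Gcat, Amt and Mthfd1l, and the libraries of Gcsh and Gldc and of Gldc and Shmt1 overlapped. Mthfd1l was lowest in both media. These orders are for all transcripts of a gene and differ on coding transcripts alone, a choice made after seeing the data. In TKO-serum the means on coding transcripts put Gldc (156 TPM) above Gcsh (153 TPM), Mthfd1 (112 TPM) above Shmt1 (88.9 TPM), and Amt (38.3 TPM) below Mthfd1l (39.0 TPM). In TKO-2i they put Gcsh (138 TPM) above Shmt1 (106 to 113 TPM over its libraries), and both Mthfd1 (94.3 TPM) and Gcat (84.9 TPM) above Amt (82.5 TPM). On coding transcripts the libraries overlapped for Gldc and Gcsh and for Amt and Mthfd1l in TKO-serum, and for Gcat and Amt in TKO-2i.

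The share of TPM on coding transcripts was higher in every TKO-2i library for Tdh, Amt and Shmt1. For the other genes it overlapped between the media or was 100% in both. Gldc has 1 annotated transcript. The protein-coding transcript of Tdh held 92.4 to 95.1% of its TPM in TKO-2i and 87.3 to 90.6% in TKO-serum. The coding share was thus slightly higher in every TKO-2i library. For Amt the coding transcript held 83.0 to 85.6% in TKO-2i and 76.5 to 78.6% in TKO-serum, and an annotated retained-intron transcript held 11.4 to 13.9% and 16.2 to 19.6%. On coding transcripts alone Amt stayed higher in TKO-2i, with 77.8 to 85.4 TPM against 37.9 to 38.5 TPM. Only 62.0 to 63.3% of the Shmt1 TPM in TKO-2i and 56.4 to 61.8% in TKO-serum lay on coding transcripts, which lowers its level to 106 to 113 TPM and 87.2 to 91.9 TPM. The groups did not overlap on coding transcripts either.

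Some reads could be shared with other genes. The coding transcript of Tdh is 97.1% identical over 1125 bases to the pseudogene Gm13929, which had mean counts of 3.33 in TKO-2i and 1.67 in TKO-serum. Stretches of Gcsh match 4 processed pseudogenes with mean counts of 0 to 0.333, and 1 matches a retained-intron transcript of Cysltr2, with mean counts of 8 in TKO-2i and 46 in TKO-serum. A repeat-like stretch of the Amt transcript, between bases 1466 and 1630 of 2082, matches transcripts of 113 other genes at 90% identity or more. The highest mean counts among these genes were those of Mcm5, at 34900 in TKO-2i and 34800 in TKO-serum. Shmt1 overlaps Smcr8, which had mean counts of 4480 in TKO-2i and 4060 in TKO-serum, by 184 bases on the opposite strand. How strand was used in the counting is not given in the sources used here. The share of reads these stretches exchange was not tested.

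Promoter windows of 300 bases, from 250 before to 50 after each start, were taken from RefSeq (GRCm38.p6) for 8 of the 9 genes. Tdh was not among them. Exact matches on both strands were counted for CACGTG (in 7.15% of all 32851 windows), ATGCAAAT (1.74%), TCAAGGTCA (0.423%), TTCNNNGAA (8.30%), CTTTGAA (5.14%) and TGATGNAA (3.97%). The only match among the 8 genes was CACGTG in Gcat, which begins 3 bases from the start and so lies outside the stretch printed below. No window of these genes held any of the other motifs, which says nothing of the factors that bind them. Observed over expected CpG was 0.313 for Amt, 0.389 for Gldc and 0.748 for Gcat, beside a median of 0.384 over all windows, and the highest of the 8 was 1.14 for Dld. The bases before the annotated exons are shown for the pair that moved in opposite directions and for Gcat, 5′ to 3′ on the strand of the gene, with CpG dinucleotides in capitals. The positions are chr19:30175442-30175691 for Gldc (minus strand), chr9:108296655-108296852 for Amt (plus strand) and chr15:79030624-79030873 for Gcat (plus strand).
Gldc: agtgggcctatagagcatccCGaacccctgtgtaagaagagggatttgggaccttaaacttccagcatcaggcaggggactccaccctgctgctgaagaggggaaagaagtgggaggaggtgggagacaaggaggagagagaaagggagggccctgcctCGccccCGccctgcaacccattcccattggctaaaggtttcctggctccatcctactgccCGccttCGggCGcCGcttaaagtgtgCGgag
Amt: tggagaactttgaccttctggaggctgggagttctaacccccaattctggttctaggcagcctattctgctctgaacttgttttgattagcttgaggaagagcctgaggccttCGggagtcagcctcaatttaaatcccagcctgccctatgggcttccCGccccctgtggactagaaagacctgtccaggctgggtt
Gcat: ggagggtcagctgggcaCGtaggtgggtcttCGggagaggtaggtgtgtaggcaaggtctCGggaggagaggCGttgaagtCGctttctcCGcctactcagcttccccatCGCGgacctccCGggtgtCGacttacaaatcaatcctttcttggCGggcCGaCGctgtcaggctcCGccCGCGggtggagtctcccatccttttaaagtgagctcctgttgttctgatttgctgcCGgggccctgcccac
These stretches hold 8 CpG dinucleotides for Gldc, 2 for Amt and 17 for Gcat.

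The 65 other genes of related pathways give the setting of the 9 genes. Of the 58 that were tested, 19 were higher and 14 lower in TKO-2i, so that 56.9% passed the test beside 62.5% of all genes, and their median log2 fold change was 0.08. Among 13 other folate enzymes tested, 6 were higher and 2 lower. Shmt2, the mitochondrial partner of Shmt1 and the most abundant of them, had 150.0, 156.5 and 147 TPM in TKO-2i and 131, 131 and 138 TPM in TKO-serum. All TKO-2i libraries were higher, and the log2 fold change was 0.34 (standard error 0.07), or 0.18 with limma on log2(TPM + 1). The ratio of Shmt1 to Shmt2 in TPM, also chosen after the levels were seen, was 1.12 to 1.22 in TKO-2i and 1.10 to 1.13 in TKO-serum. These ratios overlapped between the media. Aldh1l1, which oxidises formyl-tetrahydrofolate and so removes the carbon, had 17.9, 18.5 and 17.4 TPM in TKO-2i and 2.66, 2.55 and 2.73 TPM in TKO-serum. Its TKO-2i libraries were far higher, with a log2 fold change of 2.89 (standard error 0.08; edgeR quasi-likelihood test, Benjamini-Hochberg adjusted p = 4.1e-08). It lies on chromosome 6, where the median over 866 tested genes was 0.41, or 0.50 over the 645 with a mean of 1 CPM or more. The part of that shift was not tested.

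Of 5 genes of folate uptake and mitochondrial folate transport, 1 was higher and 2 lower in TKO-2i, so that 3 of 5 were called beside 62.5% of all genes. Slc46a1, the proton-coupled folate transporter, had 16.7, 16.8 and 16.8 TPM in TKO-2i and 7.02, 6.68 and 8.75 TPM in TKO-serum (log2 fold change 1.22, standard error 0.10), and it lies on chromosome 11 with its median of 0.26. Folr1, the folate receptor, went the other way, with 35.7, 33.1 and 31.3 TPM in TKO-2i and 74.5, 76.5 and 72.8 TPM in TKO-serum (log2 fold change -1.03, standard error 0.08). Neither gene's libraries overlapped between the media.

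The next lists hold genes that make or carry serine and glycine. In serine synthesis 2 of 3 genes were higher in TKO-2i (66.7% called, beside 62.5% of all genes), and the most abundant, Psat1, had 254.5, 277 and 245 TPM in TKO-2i and 171, 187.5 and 183 TPM in TKO-serum (log2 fold change 0.57, standard error 0.05). Of 9 amino acid transporters tested, 4 were higher and 4 lower (88.9% called). By mean TPM over the 6 libraries, the most abundant of the transporters was Slc38a2, a sodium-coupled carrier of small neutral amino acids. In TKO-2i alone, the means of Slc1a5 (63.9 TPM) and Sfxn1 (38.9 TPM) lay above that of Slc38a2 (36.7 TPM). Slc38a2 had 34.0, 42.3 and 33.7 TPM in TKO-2i and 125, 141 and 132 TPM in TKO-serum (log2 fold change -1.77, standard error 0.07). Its relative Slc38a4 had 19.8, 22.1 and 17.4 TPM in TKO-2i and 92.3, 101.6 and 98.2 TPM in TKO-serum (log2 fold change -2.16, standard error 0.07). Slc1a5, an exchanger of neutral amino acids, went the other way, with 58.3, 68.6 and 64.8 TPM in TKO-2i and 32.5, 33.2 and 36.9 TPM in TKO-serum (1.01, standard error 0.06). The libraries of these carriers did not overlap between the media.

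Of 4 tested genes of threonine, serine and glycine catabolism, 2 were lower in TKO-2i and none was higher, beside 62.5% called over all genes. Gnmt, which methylates glycine, had 2.22 ± 0.289 TPM (SD, n = 3) in TKO-2i and 5.14 ± 0.257 TPM in TKO-serum. Gatm, which uses glycine for creatine, had 0.355 ± 0.0607 TPM in TKO-2i and 2.52 ± 0.206 TPM in TKO-serum. Both log2 fold changes passed the test, at -1.08 for Gnmt and -2.68 for Gatm, and Gatm had -1.37 with limma on log2(TPM + 1) and -2.53 on log2(TPM + 0.1).

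Other genes are joined to the glycine cleavage system through the lipoyl arm, Dld or the carbon it releases, and the counts of their lists stand beside 62.5% called over all genes. Of 4 lipoylation enzymes 2 were higher, and the most abundant, Lias, had 36.2, 36.3 and 34.1 TPM in TKO-2i and 32.3, 37.0 and 34.4 TPM in TKO-serum. These overlapped in TPM but not in CPM, and the log2 fold change of counts, 0.14 (standard error 0.05), did not pass the test. With limma on log2(TPM + 1) the Lias value was 0.04. Of 9 subunits of the other complexes that use Dld, 2 were higher and 2 lower, and the most abundant, Pdha1, had 113.5, 117.6 and 113.0 TPM in TKO-2i and 123, 129 and 123 TPM in TKO-serum. Its TPM was lower in every TKO-2i library, while the log2 fold change of counts was -0.04 (standard error 0.05). In purine synthesis, which consumes formyl-tetrahydrofolate, 2 of 6 genes were higher and 1 lower, and the most abundant, Paics, had 336, 346 and 343 TPM in TKO-2i and 373, 392 and 378 TPM in TKO-serum. It too was lower in TKO-2i in TPM, with a log2 fold change of counts of -0.06 (standard error 0.05) that did not pass the test. With limma on log2(TPM + 1) both passed, at -0.12 for Pdha1 and -0.16 for Paics, but the median of all genes was -0.06 in that fit, beside 0.01 in edgeR. In the methionine cycle 1 of 5 genes was lower and none higher. Its most abundant gene, Mat2a, had 271, 340.7 and 279 TPM in TKO-2i and 248, 290.7 and 265.5 TPM in TKO-serum. The groups overlapped, and its log2 fold change of 0.20 (standard error 0.08), below the chromosome 6 median, did not pass the test, though it passed with length-scaled counts, at 0.24, and was 0.11 without TKO-2i replicate 2.

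**Figure D3:**
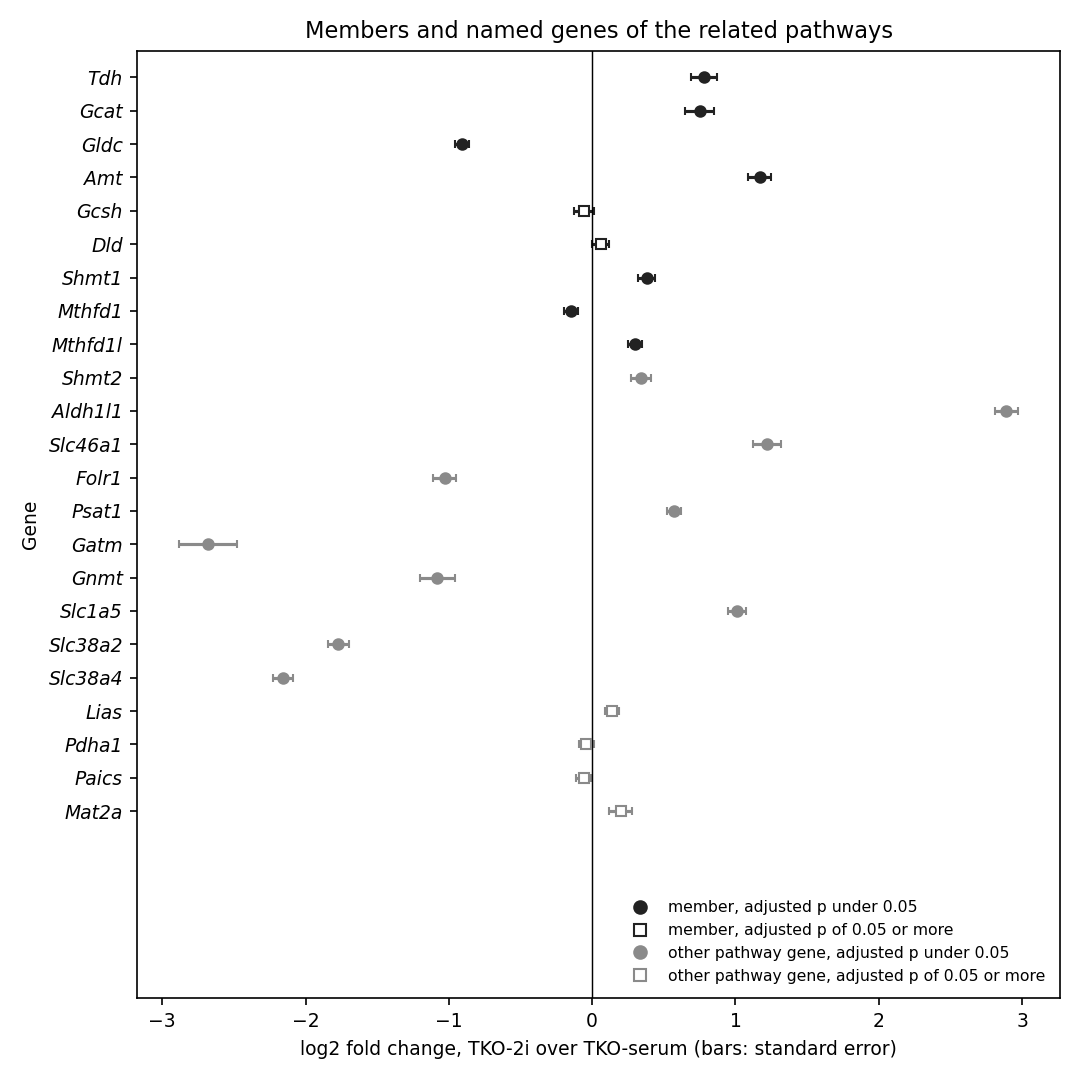
Log2 fold change of TKO-2i over TKO-serum for the 9 genes (black) and for the named genes of the related pathways (grey), with standard errors as bars and open squares where the adjusted p-value was 0.05 or more. Amt, at 1.17, and Gldc, at -0.91, stand on opposite sides of 0, and Aldh1l1, at 2.89, is farthest to the right.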

How the data were processed

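Poly(A) RNA of 3 TKO-2i and 3 TKO-serum libraries was analysed, with groups and replicate numbers from the labels. The authors deposited, per transcript, an estimated count that is not normalized, and a TPM value scaled by effective length. The quantifier is not given in the sources used here, and the columns are those that salmon writes. The submitters' processing notes name mm10, and the study's methods describe Tophat V2, RPKM and DEseq.

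Transcripts were matched to GENCODE M21 (GRCm38), 136100 of 136288 (99.86%), and summed by gene name. Sums of estimated counts were rounded. Genes were filtered by filterByExpr, normalized by TMM and tested in edgeR 4.0.16 (R 4.3.3) with condition as the only factor and Benjamini-Hochberg adjustment over all genes. A standard error is the absolute log2 fold change over the square root of F. Near-identical copies were sought with BLAST+ 2.17.0. The scripts used Python 3.11.15, numpy 2.4.6, pandas 2.3.3 and matplotlib 3.10.9, and the fits were tested on simulated data.

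The smallest count of a member was 2524, and the coefficient of biological variation was 0.09 across genes. Chi-square per gene was 4.68 between TKO-serum replicates 1 and 3 and 16 and 11 between replicate 2 and these. In TKO-2i it was 7.08 between replicates 1 and 3 and 45 and 27.4 between replicate 2 and these. No library repeats another, and replicate 2 stands apart in both groups. Alternatives were DESeq2 1.42.0, its size factors, other filters, length-scaled counts, limma 3.58.1 on log2(TPM + 1) and log2(TPM + 0.1), coding genes or transcripts, a replicate block and each library left out. Sums per gene identifier and the TPM of coding transcripts were added after seeing the data.

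Members and lists were chosen with earlier results of these data known. From each related list the text names the most abundant gene and at most 3 genes in each direction that pass the test with a log2 fold change of at least 1 in size, at 1 CPM or more on average and without overlap in CPM.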

Additional observations from a re-analysis of the deposited data

How the results depend on the processing

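Tdh, Gcat, Gldc, Amt, Shmt1 and Mthfd1l kept their direction and their side of the threshold in every alternative run. Their log2 fold changes ranged from 0.62 to 0.87, 0.61 to 0.86, -1.01 to -0.88, 0.98 to 1.22, 0.24 to 0.43 and 0.22 to 0.32. Gcsh passed the threshold with limma, at -0.15 (adjusted p 0.017 on log2(TPM + 1) and 0.019 on log2(TPM + 0.1)), and lay between -0.10 and 0.00 when 1 library was left out, turning to 0.00 (adjusted p 0.94) without TKO-2i replicate 2. With limma on log2(TPM + 1) 8 of the 9 genes were called, 3 of them lower, beside 10045 of all 18158 genes, 5838 of them lower, and the median of all genes was -0.06. Dld turned to -0.02 (adjusted p 0.80) with limma on either scale. The cause was not tested. Mthfd1 lost its call without TKO-2i replicate 3 and without each of TKO-serum replicates 1, 2 and 3 (adjusted p 0.066, 0.076, 0.066 and 0.056), and lay between -0.18 and -0.13 when 1 library was left out, so that 1 to 2 genes were called lower. Fewer libraries were fitted there. It reached -0.25 with limma. Counts of all genes called ranged from 9800 to 12561, the highest without TKO-2i replicate 2, where 40 of the other pathway genes were called. The level of Gldc relative to Amt was 0.944 in TKO-2i and 4.08 in TKO-serum on coding transcripts, a choice made after seeing the data.

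With the replicate number as a replicate block, 12540 genes and the same number of members, 7, were called. The members' values in this paired fit were 0.77 (Tdh), 0.74 (Gcat), -0.91 (Gldc), 1.17 (Amt), -0.07 (Gcsh), 0.06 (Dld), 0.38 (Shmt1), -0.15 (Mthfd1) and 0.30 (Mthfd1l), with 40 of the other pathway genes called beside 33. Lias and Mat2a passed the threshold in that fit (adjusted p 0.039 and 0.0027), and no other gene named from the pathway lists changed its call there. Elsewhere calls were gained by Lias without TKO-2i replicate 2 (0.012), Pdha1 with limma on log2(TPM + 1) (0.048), Paics with limma on both scales (0.014 and 0.015), and Mat2a with length-scaled counts (0.0063) and without TKO-2i replicate 1 (0.033). Deviations of same-numbered libraries correlated across genes at 0.38, 0.498 and 0.0621, and 5 of 6 libraries correlated best with their own number, a hint from the data only.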
